A study of Mus musculus with 9 samples.

Results

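The CCN family of matricellular genes was examined in 3 stromal lines of the mouse, of which 2 are labelled as supporting hematopoiesis and 1 as not supporting it. Members were all probe sets whose platform annotation gave exactly 1 gene symbol from Ccn1 to Ccn5, older symbols included (Cyr61, Ctgf, Nov, Wisp1 and Wisp2). The rule found 5 genes with 5 probe sets, 1 for each gene, among 15964 genes with 29131 single-symbol probe sets. All 5 probe sets are on the MG-U74A array. Both AGM lines come from the aorta-gonad-mesonephros, an embryonic region in which hematopoietic stem cells arise. Of them, AGM-s3-A9 is labelled as supportive and AGM-s3-A7 as non-supportive, and they are called the supportive and the non-supportive AGM line here. OP9, the other supportive line, comes from newborn mouse calvaria and is known to derive from mice that lack functional macrophage colony-stimulating factor. The labels give no treatment, passage number or culture condition. Each line was measured once on each of 3 Affymetrix array types, so a difference between supportive and non-supportive cells cannot be told apart from a difference between individual lines.

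CCN proteins are secreted proteins that bind matrix and cell surface receptors and modulate signalling there, rather than forming fibres themselves. They share modules that resemble insulin-like growth factor binding proteins, von Willebrand factor type C repeats, thrombospondin repeats and a C-terminal cystine knot, the last of which CCN5 lacks. Ccn1 and Ccn2 are known as rapidly induced targets of serum response factor (SRF) and of the mechanosensitive YAP/TAZ and TEAD regulators, Ccn2 also of TGF-beta. Ccn3 has been linked to the maintenance of hematopoietic stem and progenitor cells, Ccn4 to Wnt signalling and bone formation, and Ccn5 to growth arrest in smooth muscle cells.

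Levels are intensities after quantile normalization, a step that gives the 3 arrays of a type the same distribution. The detection level on MG-U74A was 49.0, the median of all normalized values, which lies above the 95th percentile of its 34 negative control probe sets (39.1). Values at or below it were raised to it before a ratio was formed, and a fold that rests on such a value is given as "at least". A difference was counted from 2-fold upward. With 1 array per line and type there was no replicate error and no test. The agreement of different probe sets for the same gene on MG-U74A was measured by the robust SD of their log2 ratios. It was 0.30 (617 genes) between the AGM lines and 0.33 (619 genes) between the supportive lines. Between OP9 and the non-supportive AGM line it was 0.31 (609 genes). The 2 probe sets of a gene disagreed by 2-fold or more in 4.70%, 7.43% and 6.57% of those genes, in the same order. Both probe sets were read on the same arrays, so this SD covers neither error between arrays nor the spread between cultures. Each CCN gene had 1 probe set, so its own agreement could not be checked.

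Of 8 markers of mesenchymal stroma, 7 were above the detection level in each AGM line and 6 in OP9, where Thy1 was below it, and the probe set of Vim was below it in all 3 lines. Their summed intensity was 19952 in AGM-s3-A9 cells, 20570 in AGM-s3-A7 cells and 10161 in OP9. Of 8 hematopoietic and 6 endothelial markers, 0 were above the detection level in any line. Of 5 epithelial markers, Epcam and Cdh1 were above it in all 3 lines, with a summed intensity of the list between 206 and 251. The part of the lower stromal sum of OP9 in the differences described here was not tested.

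The members that separated each supportive line from the non-supportive AGM line overlapped in part. Both supportive lines differed in Ccn3, in opposite directions, and in Ccn5, in the same direction. Ccn2 and Ccn3 were at least 2-fold higher and Ccn5 lower in the supportive AGM line, whereas Ccn3, Ccn4 and Ccn5 were lower in OP9. Thus 2 of 5 members were higher in the supportive than in the non-supportive AGM line, where 3.08% of 8590 genes tested were, and 1 of 5 was lower, where 2.28% were. In OP9, 3 of 5 were lower than in the non-supportive AGM line, against 5.98% of 8739 genes, and 0 of 5 were higher, against 5.14%. Between the supportive lines, 3 of 5 members (Ccn2, Ccn3 and Ccn4) were higher in the AGM line, against 6.58% of 8760 genes, and 0 were lower, against 5.06%. The median log2 ratio of the members was 0.50 between the AGM lines (supportive over non-supportive), -1.66 for OP9 over the non-supportive line and 1.10 for the supportive AGM line over OP9, beside 0.01, 0.04 and -0.02 over all genes tested. Any 2 of the 3 comparisons share an array, so they are not independent of each other.

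**Figure D1:**
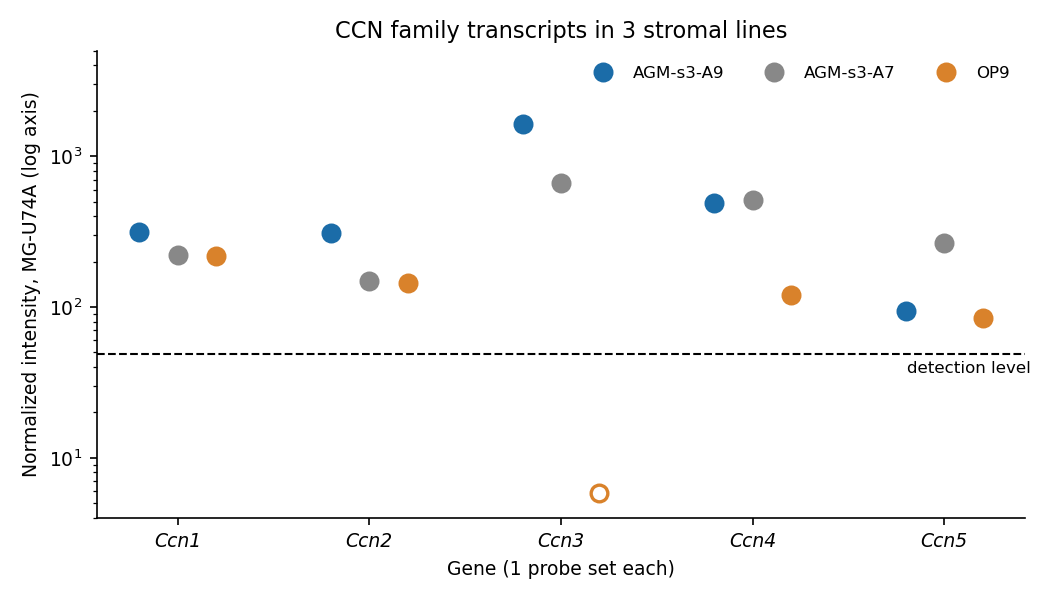
Normalized intensity (log axis) of the probe set of each CCN gene on MG-U74A in the 3 lines, 1 array per line. The dashed line is the detection level of 49.0; the open symbol, Ccn3 in OP9 at 5.84, is the only value below it.

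Ccn3 (probe set 100507_at) showed the widest range of the family. Its intensity was 1622 in AGM-s3-A9 cells, 668 in AGM-s3-A7 cells and 5.84 in OP9. Both AGM lines had a clear signal, and OP9 had none above the detection level. Ccn3 was 2.43-fold higher in the supportive than in the non-supportive AGM line, a log2 ratio of 1.28 beside the probe set SD of 0.30. Of 4276 MG-U74A genes above the detection level in both AGM lines, 64, Ccn3 among them, had a log2 ratio at least as high. Against OP9, Ccn3 was higher by at least 13.6-fold in the non-supportive and by at least 33.1-fold in the supportive AGM line. The supportive lines therefore held the highest and the lowest value of this gene, with the non-supportive line between them. The intensities as deposited, 2181, 549 and 5.27 in the same order of lines, gave the same ranking. Whether fewer cells expressed Ccn3 or each cell held less of its RNA cannot be told apart in bulk RNA.

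Ccn2 (93294_at), the connective tissue growth factor gene, was highest in the supportive AGM line and similar in the other lines. Its intensity was 309 in AGM-s3-A9 cells, 149 in AGM-s3-A7 cells and 144 in OP9. The supportive AGM line exceeded the non-supportive one by 2.07-fold and OP9 by 2.15-fold, both just past the 2-fold limit, with log2 ratios of 1.05 and 1.10 beside probe set SDs of 0.30 and 0.33. Between OP9 and the non-supportive line the log2 ratio was -0.05, within that SD. Of the 4276 genes measured in both AGM lines, 107 had a ratio at least as high as that of Ccn2.

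Ccn1 (92777_at), the immediate early gene first named Cyr61, had the same order with a smaller difference. Its intensity was 313 in AGM-s3-A9 cells, 222 in AGM-s3-A7 cells and 217 in OP9. The supportive AGM line was 1.41-fold above the non-supportive one and 1.44-fold above OP9, both under the 2-fold limit. OP9 and the non-supportive line differed by 1.02-fold. Between the AGM lines, the log2 ratio of Ccn1 minus that of Ccn2 was -0.56, a value in which a scale factor of either array cancels.

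The 250 bases before the start site of Ccn1 are shown because Ccn1 and Ccn2 had the same order in the 3 lines and Ccn1 is a known target of TEAD and SRF. They are from RefSeq (GRCm38.p6, minus strand, chr3:145649986-145650235), written 5′ to 3′, with matches to the searched motifs in capitals. Of the 5 members, 1 was matched in the RefSeq promoter table.
Ccn1 promoter: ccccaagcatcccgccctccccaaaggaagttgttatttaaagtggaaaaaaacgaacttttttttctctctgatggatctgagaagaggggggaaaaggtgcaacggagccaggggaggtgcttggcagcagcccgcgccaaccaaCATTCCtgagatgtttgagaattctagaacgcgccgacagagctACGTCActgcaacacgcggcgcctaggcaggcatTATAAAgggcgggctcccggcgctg

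Both strands were searched for CATTCC (the TEAD motif), for TGANTCA (the AP-1 motif), for TGACGT (a half-site of the cyclic AMP response element), for TATAAA (the TATA box) and for the CArG box of SRF. The window held 1 TEAD match whose first letter lies 103 bases before the start site, 1 half-site 59 bases before it, read on the other strand, and 1 TATA box 25 bases before it, with no overlap between them. It held 0 matches to the AP-1 motif and 0 to the CArG box. Of 32851 RefSeq windows of the same length, 12.6% held the TEAD motif, 6.47% the half-site, 12.4% the TATA box, 6.75% the AP-1 motif and 1.47% a CArG box. These matches describe the letters of the window. Bases of Ccn1 outside it were not searched, and binding was not measured.

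Ccn4 (102044_at) separated OP9 from both AGM lines. Its intensity was 486 in AGM-s3-A9 cells, 514 in AGM-s3-A7 cells and 120.1 in OP9. The AGM lines had a log2 ratio of -0.08, within the probe set SD, and OP9 was lower by 4.28-fold than the non-supportive and by 4.05-fold than the supportive AGM line. Of 4184 genes measured in both OP9 and the non-supportive line, 31, or 0.741%, were at least as far below the latter in OP9 as Ccn4. Unlike Ccn3, Ccn4 was above the detection level in all 3 lines.

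Ccn5 (94704_at), the member without the cystine knot, was the only one lower in both supportive lines than in the non-supportive line. Its intensity was 93.8 in AGM-s3-A9 cells, 266 in AGM-s3-A7 cells and 83.9 in OP9. The non-supportive line stood 2.83-fold above the supportive AGM line and 3.17-fold above OP9, log2 ratios of -1.50 and -1.66 beside probe set SDs of 0.30 and 0.31. Both of these ratios rest on the same AGM-s3-A7 array. The supportive lines differed from each other by 1.12-fold, within the probe set SD. Both of their values lie within 2-fold of the detection level, so a constant background would make the measured ratios smaller than the true ones. Of the 4276 genes measured in both AGM lines, 22 were at least as far below the non-supportive line as Ccn5.

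**Figure D2:**
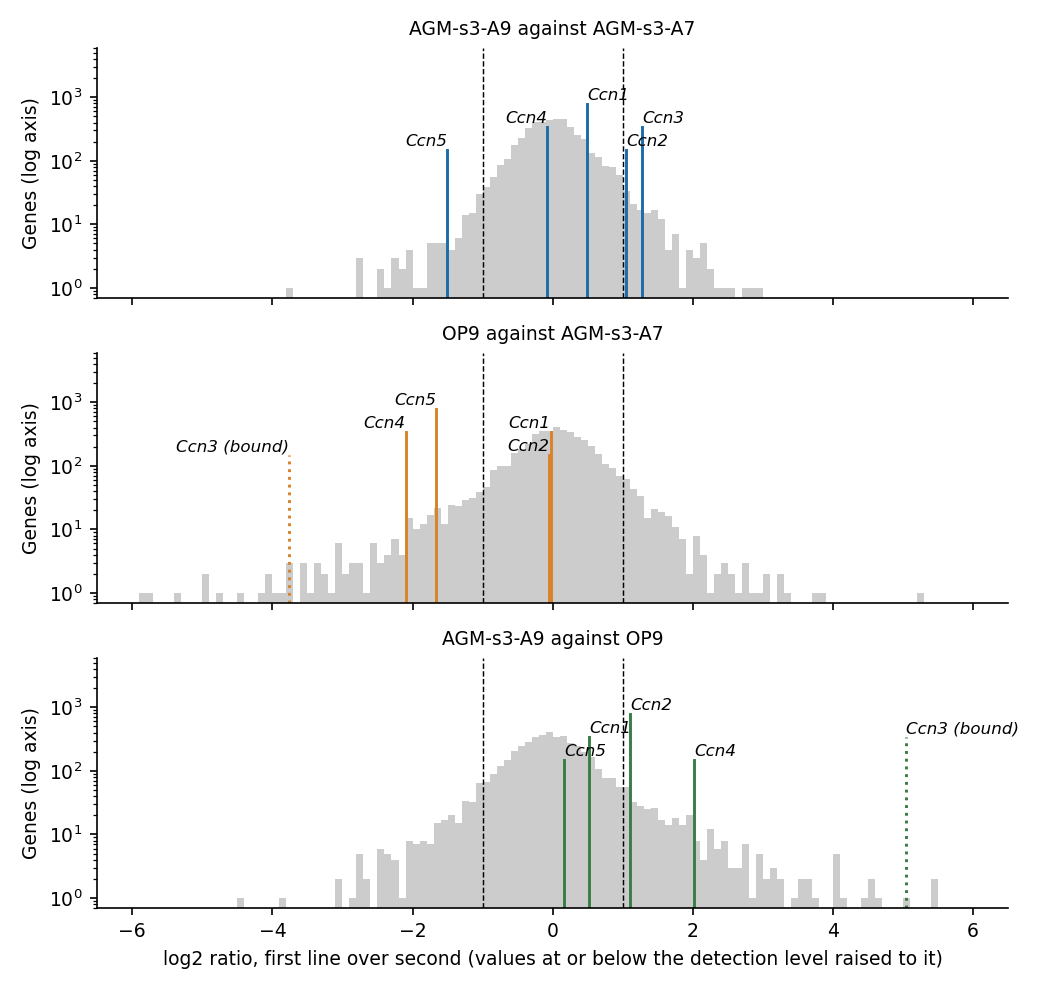
Histograms of the log2 ratio (bins of 0.1, number of genes on a log axis) over all MG-U74A genes above the detection level in at least 1 line of the pair, with the 5 CCN genes as vertical lines. Dashed lines mark 2-fold, dotted lines are bounds, and the height of a gene's line carries no value. Ccn3 and Ccn4 lie past 2-fold in both comparisons with OP9, and Ccn5 in both with the non-supportive AGM line.

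The scale of the arrays touches these values, because the MG-U74A array of the supportive AGM line was brighter as deposited. Without normalization the median log2 ratio of MG-U74A genes was 0.66 between the AGM lines and 0.55 between the supportive lines. With those values 3 members, Ccn1, Ccn2 and Ccn3, were at least 2-fold higher in the supportive than in the non-supportive AGM line and 0 were lower. Ccn1 was at a log2 ratio of 1.23 and Ccn5 at -0.78. Over all genes, 12.8% of 8806 were higher and 3.24% lower with those values. Relative to the array median, the deposited values gave 0.57 for Ccn1, 1.14 for Ccn2, 1.34 for Ccn3, -0.01 for Ccn4 and -1.43 for Ccn5, close to the normalized ratios. Scaling to the spiked hybridization controls, which does not assume equal distributions, kept the 3 calls between the AGM lines, with 1.69 for Ccn3 and -1.07 for Ccn5, and put Ccn1 at 0.93. Over all genes, the share of 2-fold differences that were higher in the supportive AGM line than in the non-supportive one was 57.5% after quantile normalization, 79.8% as deposited and 84.3% with the spiked controls. For OP9 over the non-supportive line that share was 46.2%, 48.5% and 63.8%. The sign of the Ccn4 ratio between the AGM lines and of the Ccn1 and Ccn2 ratios between OP9 and the non-supportive line changed with the scaling, and none of those reached 2-fold.

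**Figure D3:**
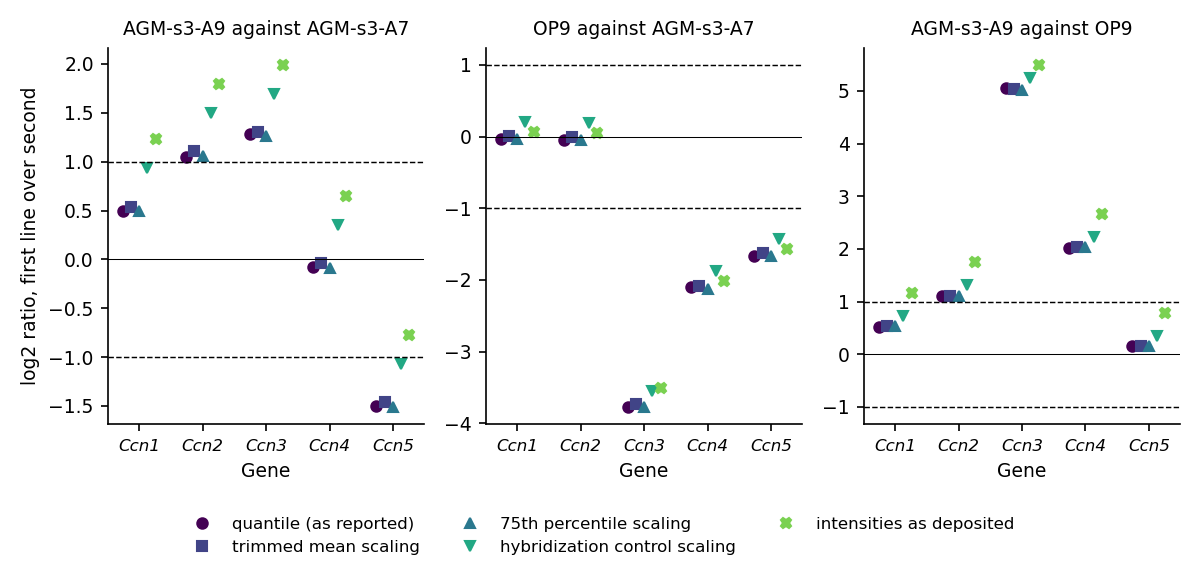
Log2 ratios of the 5 CCN genes in the 3 comparisons under 5 ways of scaling the arrays; dashed lines mark 2-fold. The genes shift together with the scaling, most between the AGM lines, where Ccn1 lies between 0.50 and 1.23 and Ccn5 between -1.51 and -0.78.

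Ccn3 and Ccn4 both lie on chromosome 15, whose genes were lower in OP9 in general. The median log2 ratio of 372 chromosome 15 genes for OP9 over the non-supportive AGM line was -0.49, against 0.05 for genes of other chromosomes, and 18.8% of them were at least 2-fold lower in OP9 and 0.806% higher, beside 5.98% and 5.14% over all genes. Between the AGM lines the chromosome 15 median was -0.17, while Ccn3 was higher in the supportive line. Among the 5 nearest measured genes on either side of Ccn3, 1 of 10 was at least 2-fold lower in OP9 than in the non-supportive line (Rad21, a cohesin subunit gene, with a log2 ratio of -1.15). Another was higher, Tnfrsf11b, the nearest measured gene on one side of Ccn3, which encodes the decoy receptor osteoprotegerin and was at 437 in OP9 and 152 in the non-supportive line. Around Ccn4, 2 of 10 were lower, its nearest measured neighbour Ndrg1, a stress response gene with a log2 ratio of at most -3.58, and the sialyltransferase gene St3gal1 with -1.09. The medians of the 10 neighbours were -0.37 at Ccn3 and -0.50 at Ccn4. As computed, the bound of -3.77 for Ccn3 lay below all of its 10 neighbours, and the ratio of -2.10 for Ccn4 below all but Ndrg1. Col14a1 near Ccn3 (-0.84) and Oc90 near Ccn4 (-0.33) were bounds too, so their place in this order is not known. Neighbours near the detection level, such as Mtbp at 53.2 in the non-supportive line, could not show such a fall. Gene copy number was not measured, and its part in the OP9 values was not tested. Genes of chromosome 2, where Ccn5 lies, had a median log2 ratio of 0.24 between the AGM lines, opposite in sign to Ccn5. The medians of chromosomes 3 and 10, which carry Ccn1 and Ccn2, were 0.004 and 0.03.

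**Figure D4:**
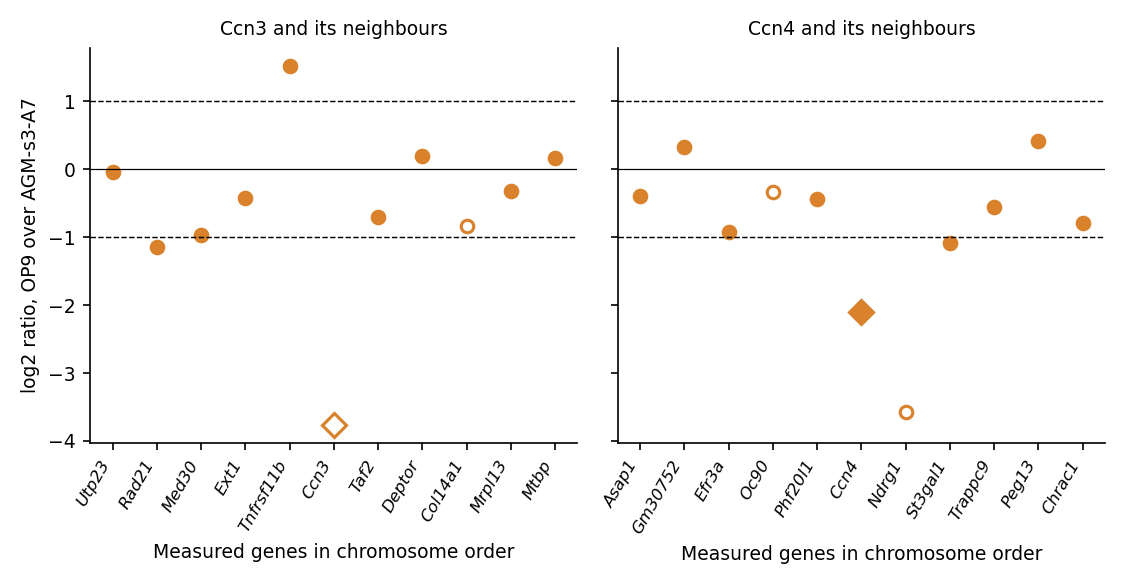
Log2 ratio of OP9 over AGM-s3-A7 for Ccn3 and Ccn4 (diamonds) and the 5 nearest measured genes on either side in the gene order of chromosome 15. Open symbols are bounds and dashed lines mark 2-fold. As plotted, Ccn3 lies below all 10 of its neighbours, and Ccn4 below all but Ndrg1, but a bound marks only the highest possible ratio.

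After quantile normalization, the counts of list genes that follow stand beside these shares over all genes tested. Between the AGM lines 3.08% were higher and 2.28% lower. For OP9 over the non-supportive line the shares were 5.14% and 5.98%. For the supportive AGM line over OP9 they were 6.58% and 5.06%. Among receptors and binding partners of CCN proteins, Dcn, Fbln1, Gja1 and Lrp1 were lower in OP9 than in both AGM lines. Of 22 listed genes 21 had a probe set and 16 were above the detection level in each comparison. Between the AGM lines 0 were at least 2-fold higher and 1, the proteoglycan gene Dcn, was lower in the supportive line, with a list median of 0.06. In OP9, 4 were lower than in the non-supportive line (Dcn, Fbln1, Gja1 and Lrp1) and 1 was higher (Notch1), with a list median of -0.27. Gja1 encodes connexin 43, a gap junction protein that binds CCN3. It was at 3186 in AGM-s3-A9 cells, 1759 in AGM-s3-A7 cells and 380.1 in OP9, the order of Ccn3. Between the AGM lines it was 1.81-fold higher in the supportive line on the brightest probe set, and past 2-fold on 1 of 2. Fbln1, the fibulin 1 gene on chromosome 15, was at 1433, 1302 and 161 in the same order of lines. Notch1, whose receptor is a further partner of CCN3, was higher in OP9 than in the non-supportive line, unlike Ccn3. It was at 70.6 in AGM-s3-A9 cells, 6.08 in AGM-s3-A7 cells and 129 in OP9. The value in AGM-s3-A7 cells was below the detection level. OP9 was therefore higher by at least 2.63-fold and the supportive AGM line by at least 1.44-fold. Lrp1, which encodes a receptor of CCN2, was 2.03-fold lower in OP9 and fell under 2-fold with the spiked control scaling. Of the integrin subunits of CCN receptors, 3 were measured in all lines and stayed under 2-fold: Itgav was at 1496, 1493 and 1394, Itgb1 at 2252, 2955 and 2797 and Itgb5 at 417, 777 and 413. Itga5 was at 74.97, 75.8 and 27.97, below the detection level in OP9, so its ratio to OP9 is only known to be at least 1.53-fold, and as deposited it was past 2-fold between the supportive lines. Itgb3, Itga6, Itgam and Itgb2 were below the detection level in all 3 lines. The 4 genes lower in OP9 than in the non-supportive line were also at least 2-fold lower than in the supportive AGM line, and 0 were higher (list median 0.34 for the supportive AGM line over OP9).

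In the list of SRF and MRTF components and targets, 21 of 23 genes were above the detection level. The immediate early genes Egr1, Egr2 and Fos were the 3 genes at least 2-fold higher in the supportive than in the non-supportive AGM line, where 3.08% of all genes were, and 0 were lower, where 2.28% were (list median 0.01). Egr1, which encodes a zinc finger transcription factor, was at 633 in AGM-s3-A9 cells, 227 in AGM-s3-A7 cells and 290.2 in OP9. Egr2 was at 248, 46.4 and 66.6, its value in AGM-s3-A7 cells below the detection level. As with Ccn1 and Ccn2, the supportive AGM line was highest for Egr1 and Egr2. Fos was at 139 in both supportive lines and at 46.03, below the detection level, in the non-supportive one. Junb was nearly level on its brightest probe set, with a log2 ratio of -0.11 between the AGM lines. On 1 of 2 probe sets it was at least 2-fold higher in the supportive AGM line than in each other line. As with Ccn4, 9 genes of the list were at least 2-fold lower in OP9 than in the non-supportive line, where 5.98% of all genes were, and 1, Fos, was higher, where 5.14% were (list median -0.79). Tpm1 and Vcl, which encode a tropomyosin and the adhesion protein vinculin, were under 2-fold, with log2 ratios of -0.54 and -0.79. Acta2, the smooth muscle actin gene, was at 2684, 2664 and 581. Mrtfa, which encodes an SRF cofactor and also lies on chromosome 15, was at 232, 237 and 57.8. In the supportive AGM line 10 genes were higher and 0 lower than in OP9, against 6.58% and 5.06% of all genes (median 0.79). With the spiked control scaling 7 genes were lower in OP9 than in the non-supportive line, Cnn2 and Myl9 no longer among them. Over all genes 4.53% were lower with that scaling. The largest differences between OP9 and the non-supportive line were at least 14.3-fold for Cnn1, at least 11.8-fold for Fhl1, at least 8.31-fold for Tpm2 and 4.58-fold for Acta2. Cnn1 and Tpm2 encode the contractile proteins calponin and tropomyosin, and Fhl1 a LIM domain protein.

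Components and targets of YAP/TAZ and TEAD had 0 of 23 measured genes at least 2-fold higher in the supportive than in the non-supportive AGM line. That count is close to the share of 3.08% over all genes, so it marks no contrast with Ccn2. As deposited, F3 was past 2-fold higher. Of 34 listed genes 31 had a probe set and 23 were above the detection level. Between the AGM lines 0 were higher and 4 lower in the supportive line, with a list median of -0.30. These were Vgll3, a TEAD cofactor gene (lower by at least 3.40-fold), Gadd45a (3.34-fold), Ccdc80 (2.86-fold) and the kinase gene Lats1 (2.07-fold). Between these lines, Ccdc80 was under 2-fold as deposited and Lats1 with the spiked controls, with a list median of -0.06 in each setting. The regulators were nearly level: Yap1 was at 485 in AGM-s3-A9 cells, 524 in AGM-s3-A7 cells and 651 in OP9, and Wwtr1, the TAZ gene, at 253, 277 and 223. Ankrd1, a widely used target gene of the pathway, was below the detection level in all 3 lines. Over the non-supportive line, OP9 had 1 higher gene (Crim1, 2.06-fold, on 1 of 2 probe sets) and 1 lower (Ccdc80). Gadd45a was 1.998-fold higher there, and with each of the 4 other scalings Gadd45a and not Crim1 was the gene past 2-fold; Ccdc80 was under 2-fold with the spiked controls. In the same list, the supportive AGM line over OP9 had 0 higher and 4 lower (Gadd45a, Vgll3, Tgfb2 and Crim1). The list medians of these comparisons were -0.18 and -0.22.

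Of 19 measured TGF-beta signalling genes, among them inducers of Ccn2, 0 were at least 2-fold higher and 1 was lower in the supportive than in the non-supportive AGM line. The list median of 0.03 covers genes that differed both ways. Eng, a co-receptor gene, was at 78.9 in AGM-s3-A9 cells and 157 in AGM-s3-A7 cells. Its log2 ratio of -0.99 passed 2-fold with 75th percentile scaling. Tgif1 had a log2 ratio of -0.84, whereas Tgfb1 had 0.63 and Smad2 0.46. The lower gene was Tgfbr2, a TGF-beta receptor gene, at 573 in AGM-s3-A9 cells, 1192 in AGM-s3-A7 cells and 571 in OP9, highest in the non-supportive line as Ccn5 was. It was just past 2-fold, and the call was lost with the spiked controls in both comparisons and as deposited in that with OP9. The ligand genes Tgfb1, at 114, 73.95 and 62.99, and Tgfb3, at 426, 363 and 277, were under 2-fold after quantile normalization. As deposited and with the spiked controls, Tgfb1 was past 2-fold higher in the supportive AGM line than in each other line. Tgfb3 was past 2-fold only as deposited, between the supportive lines. In OP9 2 genes were lower than in the non-supportive line, Tgfbr2 and the matrix protein gene Tgfbi, and 0 were higher (list median -0.04). Tgfbi was at 552, 466 and 3.93, that is, below the detection level in OP9 as Ccn3 was. The supportive AGM line over OP9 gave 1 higher of 18 (Tgfbi) and 3 lower (Tgfb2, Tgif1 and Tgfbr3), with a median of -0.09. Tgfbr3 was past 2-fold on 1 of 4 probe sets, and under it with the 75th percentile, trimmed mean and spiked control scalings. As deposited the split was 4 higher and 2 lower, where 13.5% and 7.69% of 8997 genes were. The sign of this list's median in both comparisons with OP9 changed with the scaling.

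Insulin-like growth factor binding proteins share their N-terminal module with CCN proteins, and of 7 listed genes 6 had a probe set and 3 were above the detection level. Igfbp2 had the order of Ccn3, at 893 in AGM-s3-A9 cells, 506 in AGM-s3-A7 cells and 8.56 in OP9. Igfbp6, on chromosome 15, was at 281, 774 and 7.44 and was lower in both supportive lines, as Ccn5 was. Igfbp4 was at 2257, 1359 and 2406, under 2-fold in each comparison after quantile normalization. As deposited it was past 2-fold higher in the supportive than in the non-supportive AGM line. Between the AGM lines 0 were higher and 1 lower, in OP9 0 were higher and 2 lower than in the non-supportive line, and the supportive AGM line had 2 higher and 0 lower than OP9. With the intensities as deposited the split between the AGM lines was 2 higher and 0 lower. It was 8 and 0 in the SRF and MRTF list, 5 and 1 among the receptors and 4 and 1 in the TGF-beta list. In the YAP/TAZ and TEAD list it was 1 and 3. Those counts stand beside 12.8% of 8806 genes higher and 3.24% lower, not beside the shares after normalization.

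**Figure D5:**
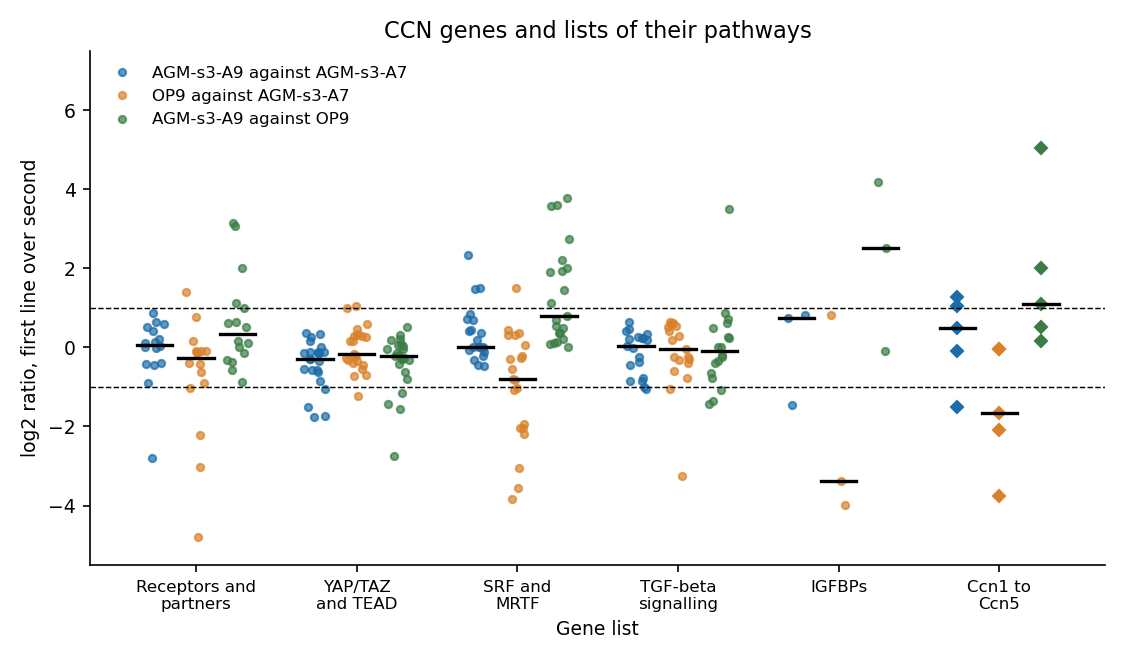
Log2 ratios of the genes above the detection level in 5 lists related to CCN biology (circles, spread sideways for visibility) and of Ccn1 to Ccn5 (diamonds), by comparison; black bars are medians and dashed lines mark 2-fold. For OP9 over AGM-s3-A7, the median of the SRF and MRTF list is -0.79 and that of the CCN genes -1.66, while those of the YAP/TAZ and TGF-beta lists are -0.18 and -0.04.

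Genes with the pattern most like each member were taken from 4852 other MG-U74A genes above the detection level in at least 1 line, by the distance between log2 intensities centred on their mean over the 3 lines. For Ccn3 these were Ifi202b, an interferon-induced gene, Vdr, the vitamin D receptor gene on chromosome 15, and Fmod, the gene of the collagen-binding protein fibromodulin. Their intensities in the AGM lines, supportive first, were 233 and 106 for Ifi202b, 452 and 156 for Vdr and 1184 and 837 for Fmod. All were below the detection level in OP9, as Ccn3 was, so their distances rest in part on background values and carry no order. Nearest to Ccn2 were Psmd5, Nkiras1 and Rhou, at distances of 0.02 to 0.08, with all values above the detection level. Nearest to Ccn4 were Zfp574, Mrtfa and Srpx, of which Zfp574 was below the detection level in OP9. Nearest to Ccn5 were Cd24a, Apcdd1 and Guca1a, and all of them were under the detection level in AGM-s3-A9 and OP9. When values were first raised to the detection level, 1 of 3 genes was shared for Ccn3 (Fmod, then joined by Igfbp2 and Kng1), 0 of 3 for Ccn5 and 2 of 3 for Ccn2 and for Ccn4.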

How the data were processed

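Gene expression was measured on 9 Affymetrix arrays, each of the 3 lines once on the A, B and C arrays of the MG-U74 set. Per the labels' protocols, RNA was purified with an RNeasy kit and 6 ug of it was used to make biotinylated cRNA. The deposited files hold a linear intensity for each probe set; which software and scaling the authors used is not given in the sources used here. Trimmed means (2% at each end) of the MG-U74A arrays differed by up to 61.1%, so log2 intensities were quantile normalized within array type (Python 3.11.15, numpy 2.4.6, pandas 2.3.3). Quantile normalization can understate differences of the brightest probe sets, as it did for known rises in simulated data. Each gene was represented by its brightest single-symbol probe set. The detection level was the higher of the median and the 95th percentile of negative controls of the array type; genes above it in at least 1 line of a pair were counted as tested. The members and gene lists were chosen with earlier results of these data known. Named by rule were the 5 members, the 3 genes nearest in pattern to each member that reached 2-fold, and up to 4 genes per list and comparison; other named genes were chosen after their values were seen or by position. Chromosomes and gene order came from RefSeq (GRCm38.p6), in which 99.5% of genes were found by gene identifier. Alternatives changed the scaling, the floor, the probe set rule and the fold limit. The number of arrays limits the precision.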

Additional observations from a re-analysis of the deposited data

How the results depend on the processing

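Of 33 alternative counts of members at least 2-fold apart, 9 could not change, since each member has 1 probe set and the median is already the detection level on MG-U74A. Of the other 24, 23 stayed within 1.5 times the reported count; the exception was the 3-fold limit between the AGM lines, at which 0 members were counted. A count does not say which members: with intensities as deposited 3 were still past 2-fold between the AGM lines, but Ccn1 took the place of Ccn5, and between the supportive lines there were 4, with Ccn1 added. Of 135 alternative log2 ratios of single members, 64 differed at all from the reported value; of these, 46 moved by less than the probe set SD and 18 moved further, and no ratio past 2-fold changed sign. Those 18 came from the deposited values, the spiked control scaling and the floor, the last only for Ccn3 in OP9. Its log2 ratio to the non-supportive line was -6.84 without a floor and -4.10 with the control level as floor. Raising values to the detection level before the search for similar patterns was chosen after seeing the data. No paired analysis was possible because each line was hybridised once to each array type.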
